A study of Mus musculus with 8 samples.

Results

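Acyl-CoA thioesterases and their relatives, the acyl-CoA:amino acid N-acyltransferases, were followed in the livers of female mice given dihydrotestosterone (DHT). The genes are Acot1, Acot2, Acot3, Acot4, Acot8, Acot9, Acot12, Acot13, Acnat1 and Acnat2, taken by their symbols: 10 of the 14317 mouse genes in the table, and all 10 passed the filter on low values. The study asked how androgen excess changes the liver lipids of females on a high-calorie diet. All mice were female, were 7 weeks old when a pellet was implanted, and ate a western diet (WD, rich in palm oil, fructose and cholesterol) for 8.5 weeks. Livers came from 4 Con-Veh mice with empty silastic pellets and 4 Con-DHT mice with 10 mm pellets of DHT, an androgen that cannot be converted to estrogen. Pellets were worn for the same 8.5 weeks and were replaced during that time. The labels give the genotype of both groups as WT. The paper's methods give an overnight fast before death in the paragraph on a separate WD cohort. Whether it covers these livers is not clear from that wording. Each library held between 13123962 and 17815944 reads on mouse genes.

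An acyl-CoA is a fatty acid activated by coenzyme A. Thioesterases cleave it back to the free acid and CoA, whereas acyl-CoA synthetases run the opposite reaction and the N-acyltransferases pass the acyl group to an amino acid such as taurine or glycine. The ACOT enzymes sit in the cytosol, mitochondria and peroxisomes, and several of their genes are classical targets of PPARα, the receptor that turns on fatty acid oxidation in the fasted liver. Acnat1 and Acnat2 encode peroxisomal enzymes related to Baat, the bile acid conjugating enzyme.

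Acnat2 was the 1 gene of the 10 that differed between the groups, and its mean in Con-DHT was 0.473 times that in Con-Veh. For its neighbour Acnat1 and for Baat the ratio of the means was 0.961 and 0.99, and neither passed the test. None of the 8 Acot genes passed the test. The values are normalised read counts, tested with limma on log2(value + 1) over 14312 genes with Benjamini-Hochberg adjustment, and a gene is called at an adjusted p of at most 0.05. One call among 10 genes has to be read against the background, in which 7.21% of all tested genes were called, 4.60% higher and 2.61% lower in Con-DHT. The members had 6 positive and 4 negative log2 fold changes with a median of 0.11, against a median of -0.0081 over all tested genes. Values of every liver are shown in the plot of normalised read counts.

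**Figure D1:**
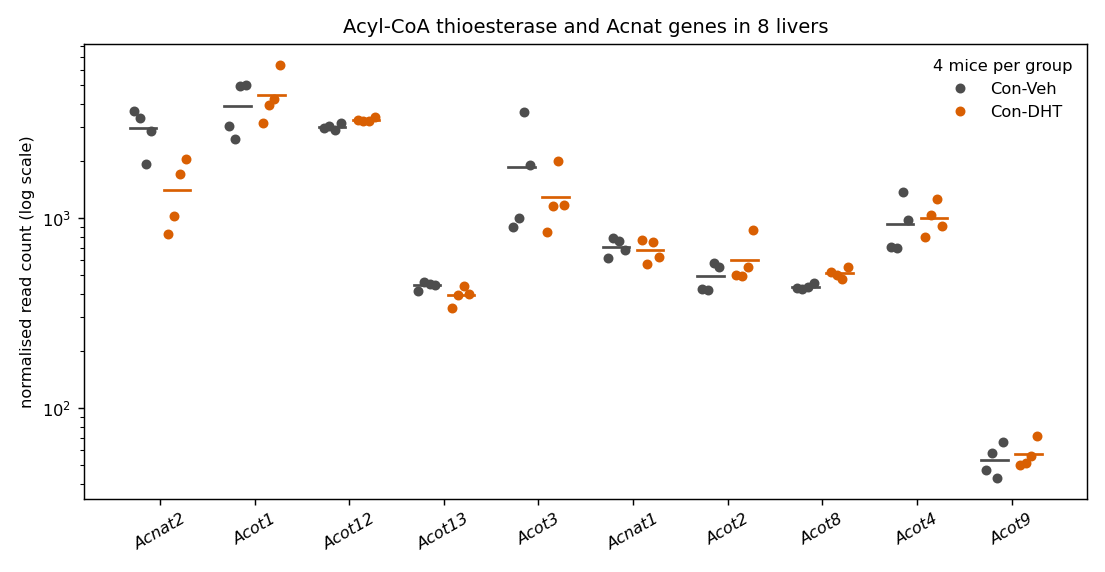
Normalised read count (log scale) of the 10 genes in the 4 Con-Veh livers (grey) and the 4 Con-DHT livers (orange), 1 point per mouse, with lines at the group means and genes ordered by their level per kilobase. The Acnat2 points of Con-DHT lie between 820.2 and 2057 and mostly below those of Con-Veh, while the Acot12 points of all livers lie close together.

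Acnat2 lies on the minus strand of chromosome 4 (49379840 to 49408151, GRCm38), next to Acnat1 (49447105 to 49473912) and near Baat. Its RefSeq promoter window, from 250 bases before to 50 bases after the start site, is shown because the gene was called, and that of Acnat1 because it is its closest relative. Capitals mark AGAACA or its reverse complement TGTTCT, a half-site bound by steroid receptors.
Acnat2, chr4:49408102-49408401, minus strand, GRCm38.p6: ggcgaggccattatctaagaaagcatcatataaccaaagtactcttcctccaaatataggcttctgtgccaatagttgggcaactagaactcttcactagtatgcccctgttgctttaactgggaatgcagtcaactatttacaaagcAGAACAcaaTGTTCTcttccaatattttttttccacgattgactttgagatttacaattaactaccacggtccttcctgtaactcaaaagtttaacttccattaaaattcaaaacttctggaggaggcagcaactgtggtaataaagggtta
Acnat1, chr4:49451060-49451359, minus strand, GRCm38.p6: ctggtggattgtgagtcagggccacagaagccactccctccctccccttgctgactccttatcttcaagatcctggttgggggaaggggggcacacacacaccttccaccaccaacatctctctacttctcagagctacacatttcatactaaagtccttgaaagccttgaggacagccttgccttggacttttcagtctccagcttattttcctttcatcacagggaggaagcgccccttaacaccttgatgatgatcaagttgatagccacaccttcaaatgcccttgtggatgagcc
The Acnat2 window holds the half-site on each strand, with 3 bases between them, so that together they spell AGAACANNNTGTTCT from position -102, counted from the start site. The Acnat1 window holds neither. That spacing was searched for after the sequence had been seen, and it is found in 3 of 32851 RefSeq promoter windows, 0.00913% of them. The other windows with it belong to Sgk1 and Gm35041. The single half-site is common, at 19% of all windows, and was present in 3 of the 11 windows of 9 members, those of Acot1, Acot12 and Acnat2. A second RefSeq start of Acnat2 has a window without it. No binding was measured here, and a match in letters is not a binding site.

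The Acnat2 values were 3680.5, 3368, 1923 and 2876 in Con-Veh replicates 1 to 4, and 820.2, 1022, 1703 and 2057 in Con-DHT replicates 1 to 4. The groups overlapped at 1 point, since Con-Veh replicate 3 was below Con-DHT replicate 4. The means were 2962 ± 768 in Con-Veh and 1401 ± 578 in Con-DHT (SD, n = 4 mice each). The log2 fold change was -1.14 (SE 0.29, 95% interval -1.78 to -0.49), with an adjusted p of 0.043 (limma). The call lay close to the threshold: the adjusted p was 0.052 with edgeR's quasi-likelihood test and 0.002 with DESeq2. It was 0.089 under the replicate block, 0.09 without trend and 0.056 when the filter was raised to a mean of 50, and it lay between 0.025 and 0.11 when 1 liver was left out. The call held in 3 of those 8 fits and was lost without Con-Veh replicate 1, 2 or 4 and without Con-DHT replicate 1 or 2. The log2 fold change itself stayed between -1.35 and -0.91 in all alternatives run. Of the 10 genes, edgeR called 0, against 7.15% of all tested genes, with 2 at an unadjusted p at or under 0.05 in limma, against 23.2% of all tested genes, and DESeq2 called 1, against 11.0%.

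Acnat1, whose enzyme conjugates long-chain acyl-CoAs to taurine, had values of 614.5, 782.7, 756.7 and 675.4 in Con-Veh and 768.2, 575.8, 748.1 and 626.1 in Con-DHT. The groups were interleaved. The log2 fold change was -0.06 (SE 0.11, 95% interval -0.32 to 0.19, adjusted p = 0.8, limma), and its sign turned under spike-in scaling and under equal totals without the Mup genes. Baat values ranged from 2577 to 3098 in Con-Veh and from 2625 to 3005 in Con-DHT, and their log2 difference was -0.01 (SE 0.08, adjusted p = 0.96, limma). Its sign turned under the same scalings and under quantile normalization.

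The Acnat2 value was 5.99, 4.3, 2.54 and 4.26 times the Acnat1 value in Con-Veh and 1.07, 1.77, 2.28 and 3.28 times in Con-DHT. Each Con-DHT ratio but the highest lay below the lowest Con-Veh ratio. The log2 ratio was 2.03 ± 0.51 in Con-Veh and 0.96 ± 0.68 in Con-DHT (SD, n = 4), a difference of -1.07 that did not pass an exact two-sided permutation test (p = 0.057, and 0.029 is the smallest p that 4 against 4 can give). That Acnat2 and Acnat1 responded differently was therefore not shown by this test. The coding sequences of the pair are 96.2% identical. Of the 150-base stretches, 5.87% of those of the Acnat2 transcript and 6.59% of those of the Acnat1 transcript occur in the other gene. A single read of that length from them cannot be assigned to either gene. By the paper's supplement, sequencing was paired-end and only uniquely mapped reads were counted. These shares therefore do not measure how much of the values is uncertain. Together the pair summed to 3669 ± 734 in Con-Veh and 2080 ± 570 in Con-DHT (SD, n = 4).

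**Figure D2:**
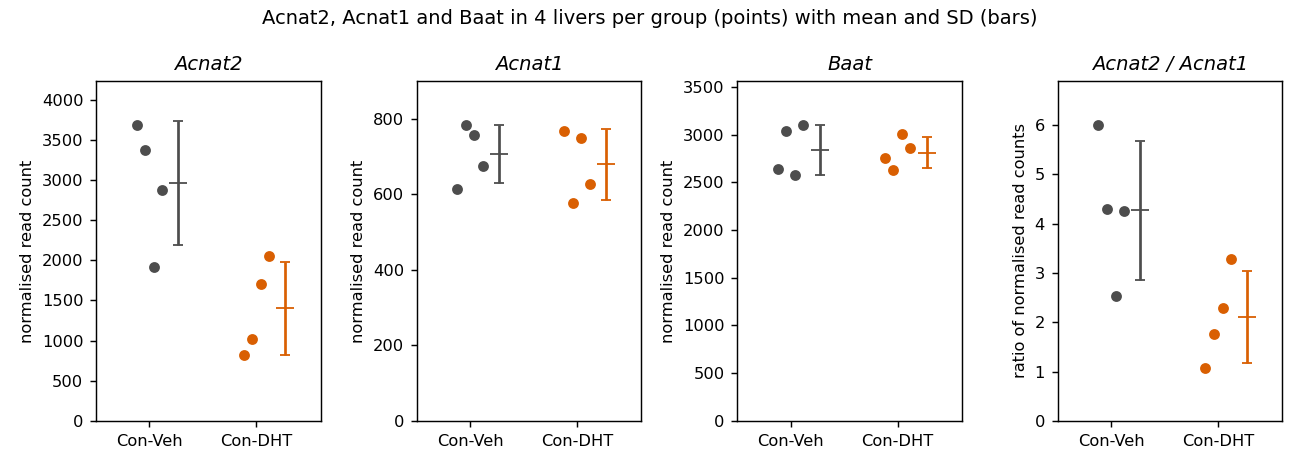
Normalised read counts of Acnat2, Acnat1 and Baat, and the ratio of Acnat2 to Acnat1, with 1 point per mouse and the mean and SD of 4 mice beside the points. Acnat2 and the ratio are lower in most Con-DHT livers, whereas the Acnat1 and Baat points of the groups interleave.

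Markers of other cell types also differed between the groups in these bulk livers, where fewer cells of a type and less RNA per cell cannot be told apart. Of 8 Kupffer cell and macrophage markers, 4 (50%, against 2.61% of all tested genes) were lower in Con-DHT. They were Cd5l (log2 fold change -0.86, adjusted p = 0.0045), Vsig4 (-0.57, 0.012), Cd68 (-0.61, 0.015) and Clec4f (-0.40, 0.039, limma for each). All 8 had negative log2 fold changes with an unadjusted p at or under 0.05, a level that 23.2% of all tested genes reached. Under spike-in scaling none of the 4 calls held. That of Clec4f was also lost under equal totals without the Mup genes, with quantile normalization, without trend and with the replicate block, and it held in 2 of the 8 fits without 1 liver, those without Con-Veh replicate 3 or Con-DHT replicate 1. The markers summed to between 6375 and 7846 in the Con-Veh livers and between 4329 and 5891 in the Con-DHT livers. Cd5l had the highest mean count in Con-Veh, and Clec4f in Con-DHT. Of 6 endothelial markers, Stab2 (-0.55, 0.018) and Lyve1 (-1.26, 0.039) were lower (33.3%, against 2.61% of all tested genes). An unadjusted p at or under 0.05 was reached by 4 of the 6 (66.7%, against 23.2%) in limma. The sums were 3543 ± 200 and 2687 ± 129 (SD, n = 4), Stab2 having the highest count. The Stab2 call was lost under spike-in scaling and without Con-Veh replicate 4 or Con-DHT replicate 1. That of Lyve1 was lost with edgeR (adjusted p = 0.052), without trend, and in all fits without 1 liver except those without Con-Veh replicate 1 or Con-DHT replicate 3. None of 7 hepatocyte markers was called by limma or edgeR, none had an unadjusted p at or under 0.05, and DESeq2 called 1, against 11.0% of all tested genes. Their sums, dominated by Alb, ranged from 835799 to 1628418 in Con-Veh and from 882126 to 1048429 in Con-DHT. The pancreatic gene Cela1 was higher in Con-DHT (70.2 ± 10.7 against 140.5 ± 46, log2 fold change 0.94, adjusted p = 0.034, called in 3 of the 8 fits without 1 liver), and the other 4 listed pancreas genes were not analysed here. The part of any of these cell types in the Acnat2 difference was not tested.

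Acot1 to Acot4 are neighbours on the plus strand of chromosome 12 (GRCm38), with Acot2 first (83987861 to 83993873), then Acot1 (84009490 to 84018371), Acot4 (84038379 to 84048601) and Acot3 (84052144 to 84060402). Acot1 encodes a cytosolic and Acot2 a mitochondrial long-chain thioesterase, and Acot3 and Acot4 encode peroxisomal enzymes, the first for long-chain acyl-CoAs and the second for succinyl-CoA. The windows of Acot3 and Acot4 are shown because the values of both genes varied together over the livers. Capitals mark AGGTCA or its reverse complement TGACCT, a nuclear receptor half-site.
Acot3, chr12:84051894-84052193, plus strand, GRCm38.p6: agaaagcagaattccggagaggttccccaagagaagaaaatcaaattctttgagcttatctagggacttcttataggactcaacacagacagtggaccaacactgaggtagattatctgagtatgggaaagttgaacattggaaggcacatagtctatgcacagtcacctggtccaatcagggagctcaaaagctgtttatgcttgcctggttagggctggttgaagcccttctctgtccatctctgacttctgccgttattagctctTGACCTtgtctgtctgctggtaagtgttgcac
Acot4, chr12:84038129-84038428, plus strand, GRCm38.p6: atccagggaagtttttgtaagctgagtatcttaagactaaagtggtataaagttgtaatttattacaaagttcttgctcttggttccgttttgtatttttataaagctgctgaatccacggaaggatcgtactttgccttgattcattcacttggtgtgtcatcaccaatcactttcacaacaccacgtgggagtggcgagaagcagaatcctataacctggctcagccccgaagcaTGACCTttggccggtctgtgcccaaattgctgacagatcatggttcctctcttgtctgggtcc
Each window holds 1 copy, at position -13 in Acot4 and at position 18 in Acot3. The half-site is present in 16.3% of all RefSeq windows and in those of 3 members. The direct repeat AGGTCANAGGTCA, the form bound by PPARα, was in 0 of the 11 windows (0.0396% of all windows), and TTCNNNGAA, the form bound by STAT5, in 0 of 11 (8.3% of all windows). Both strands were searched for each motif. Only these exact letters were matched, so a site that differs in any base is missed. With such shares among all windows, 0 of 11 does not show that these genes lack binding sites.

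Acot1 had the highest values of the cluster, with 3042, 2592, 4954 and 5013 in Con-Veh and 3177, 3943, 4228 and 6416 in Con-DHT. The groups overlapped over most of their range, and the spread within each group was wider than the distance between the means (3900 ± 1265 and 4441 ± 1389, SD, n = 4). On the log2 scale they differed by 0.20 (SE 0.25, 95% interval -0.37 to 0.76, adjusted p = 0.69, limma). A difference of up to 1.7-fold in favour of Con-DHT lies inside that interval.

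Values of Acot2 were 423.2, 418.9, 580.0 and 550.9 in Con-Veh and 500.3, 497.4, 552.1 and 864.2 in Con-DHT. Con-DHT replicate 4 stood above all others, as it did for Acot1, and the rest of the points interleaved. The fitted log2 difference was 0.27 (SE 0.18, adjusted p = 0.43, limma). Without that liver the difference was 0.08 for Acot2 and 0.01 for Acot1. The summed adipocyte markers were also highest in Con-DHT replicate 4, at 3703 against 1253 to 2474 in the other livers, with Fabp4 having the highest count of the 6 and Retn being higher in Con-DHT replicate 3. None of the 6 was called by limma, edgeR or DESeq2. An unadjusted p at or under 0.05 was reached by 1 (16.7%, against 23.2% of all tested genes). The part of these markers in the Acot1 and Acot2 values of that liver was not tested.

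Acot3 was the most variable of the Acot genes, with 897.0, 1005, 3618 and 1897 in Con-Veh and 847.7, 1161, 1991 and 1172 in Con-DHT. Its highest value was 4.27 times its lowest, found in Con-Veh replicate 3 and Con-DHT replicate 1, respectively. The fitted log2 difference was -0.36 (SE 0.41, 95% interval -1.27 to 0.55, adjusted p = 0.66, limma), and it was 0.04 without Con-Veh replicate 3. Stellate cell markers summed to 4820 in that liver and to between 1412 and 2669 in the other 7, with Dcn having the highest count of the 6. Their part in its Acot3 value was not tested. None of the 6 was called by limma, edgeR or DESeq2. An unadjusted p at or under 0.05 was reached by 1 (16.7%, against 23.2% of all tested genes).

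Acot4 values were 705.8, 693.9, 1366 and 978.2 in Con-Veh and 795.7, 1036, 1263 and 913.1 in Con-DHT. The third replicate was the highest in both groups, as it was for Acot3. A log2 difference of 0.13 was fitted (SE 0.22, adjusted p = 0.76, limma). An antisense gene, 4732463B04Rik, overlaps Acot4 and Acot3, and it too was highest in the third replicates, at 378.3 in Con-Veh and 240.9 in Con-DHT, and between 85.9 and 181.5 in the other livers. Strand-specific counting is not given in the sources used here. A single read from a stretch that the antisense gene shares with Acot4 or Acot3 therefore cannot be assigned to either gene. Of the 150-base stretches of Acot4, 7.73% are shared with it. Its log2 fold change was 0.12 (SE 0.40, adjusted p = 0.89, limma), with the opposite sign in edgeR and DESeq2.

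The livers of a group also differed among themselves in the 4 genes of the cluster. After each group's mean was removed from the log2 values, Acot3 and Acot4 had a Pearson r of 0.99 over the 8 livers (exact permutation within groups p = 0.0069, 0.03 after adjustment over 7 relations) and a Spearman rho of 0.95 (p = 0.012, adjusted 0.085). Acot1 and Acot2 had an r of 0.92 (exact permutation p = 0.0087, adjusted 0.03) and a rho of 0.81 (p = 0.026, adjusted 0.091). The other 4 relations in the cluster had r between 0.39 and 0.67 and did not pass. For each pair, r was also taken without the 2 livers farthest from the median of its first-named gene. It was then 0.94 for Acot3 and Acot4 and 0.90 for Acot1 and Acot2. It was also 0.93 for Acot1 and Acot3, 0.95 for Acot1 and Acot4, 0.61 for Acot2 and Acot3 and 0.54 for Acot2 and Acot4. The livers left out can differ between pairs with different first genes, so these values cannot be ranked across such pairs. Among the pairs of Acot1, which share the livers left out, the order of r changed. Acnat1 and Acnat2 had an r of -0.27 (exact permutation p = 0.55). Differences between these correlations were not tested. The coding sequences of Acot1 and Acot2 are 95.3% identical and those of Acot3 and Acot4 74.6%. Of the 150-base stretches of each transcript, 12.4% in Acot1, 10.2% in Acot2, 13.5% in Acot3 and 7.73% in Acot4 also occur in another gene. How much of these values is uncertain for that reason was not measured.

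Cyp4a10 and Cyp4a14, fatty acid omega-hydroxylase genes and PPARα targets, ranked the 4 livers of each group as Acot1 did, an order noticed after the values had been seen. Cyp4a14 was 59853, 45422, 67569.8 and 79774 in Con-Veh and 50802, 52912, 79543 and 102531 in Con-DHT. Its log2 fold change was 0.15 (SE 0.26, adjusted p = 0.79, limma), and that of Cyp4a10 was -0.00 (SE 0.20, adjusted p = 1), so neither passed the test. The sign turned under several scalings for Cyp4a10 and without single livers for both.

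**Figure D3:**
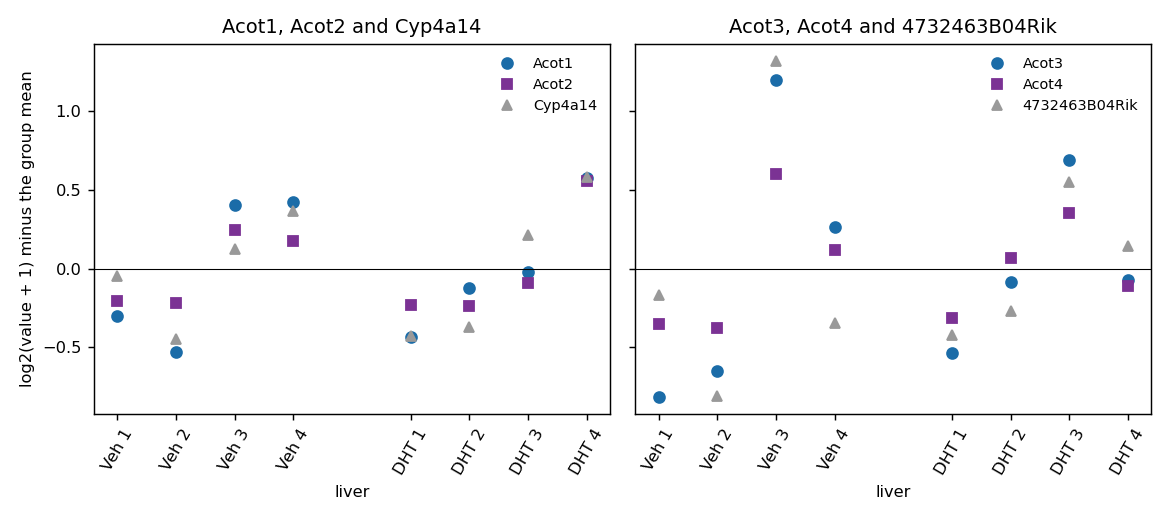
Log2(value + 1) minus the mean of the liver's own group for Acot1, Acot2 and Cyp4a14 (left) and for Acot3, Acot4 and the antisense gene 4732463B04Rik (right), 1 point per gene and liver. On the left Con-DHT replicate 4 is high for all 3 genes, and on the right the third replicate of each group is the highest.

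Shares within the cluster, taken from counts not divided by exon length, overlapped between the groups. Acot1 made up 55.4% ± 5.95 of the summed Acot1 to Acot4 values in Con-Veh and 60.1% ± 6.51 in Con-DHT (SD, n = 4), and Acot3 24.0% ± 7.24 and 17.7% ± 5.17. The sums were 7184 ± 2786 and 7339 ± 1747. The log2 ratio of Acot1 to Acot3 differed by 0.56 between the groups (exact two-sided permutation p = 0.23).

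The peroxisomal Acot8, whose enzyme acts on a broad range of acyl-CoAs, had values of 428.7, 422.7, 435.2 and 454.3 in Con-Veh and 519.0, 504.2, 478.7 and 553.3 in Con-DHT. Every Con-DHT liver was above every Con-Veh liver. Groups failed to overlap for 15.1% of all tested genes, 8.49% with Con-DHT higher and 6.62% with Con-DHT lower, and for Acot8 and Acot12, both higher, among the 10. The log2 fold change of Acot8 was 0.24 (SE 0.07, 95% interval 0.08 to 0.40), with an unadjusted p of 0.0083 and an adjusted p of 0.08 (limma). Among the alternatives it was called only when the libraries were scaled to equal totals without the 18 Mup genes (adjusted p = 0.025), and its adjusted p reached 0.78 under spike-in scaling. Acot8 lies on chromosome 2 (164792765 to 164804882, minus strand, GRCm38), and 9.47% of its 150-base stretches also occur in Snx21.

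Acot12, the cytosolic enzyme that hydrolyses acetyl-CoA, had 2974, 3046, 2918 and 3152 in Con-Veh and 3297, 3234, 3226 and 3407 in Con-DHT. The groups did not overlap, but the distance was small, the log2 fold change being 0.12 (SE 0.06, 95% interval -0.01 to 0.26, adjusted p = 0.26, limma). It was the steadiest of the 10, its highest value being 1.17 times its lowest over all 8 livers.

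Acot13, a small thioesterase associated with mitochondria, had 415.5, 461.3, 452.2 and 443.0 in Con-Veh and 335.5, 394.8, 436.8 and 400.0 in Con-DHT. Most Con-DHT values were below the Con-Veh values, with an overlap at Con-DHT replicate 3. A log2 difference of -0.18 was fitted (SE 0.09, 95% interval -0.39 to 0.02, adjusted p = 0.27, limma), and it was 0.02 under spike-in scaling. Acot9, a mitochondrial enzyme on the X chromosome, was the lowest of the 10, with values from 42.9 to 66.1 in Con-Veh and from 50.03 to 71.7 in Con-DHT. Its log2 fold change was 0.10 (SE 0.19, adjusted p = 0.8, limma). Acot9, Acot12 and Acot13 shared no 150-base stretch with another gene.

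**Figure D4:**
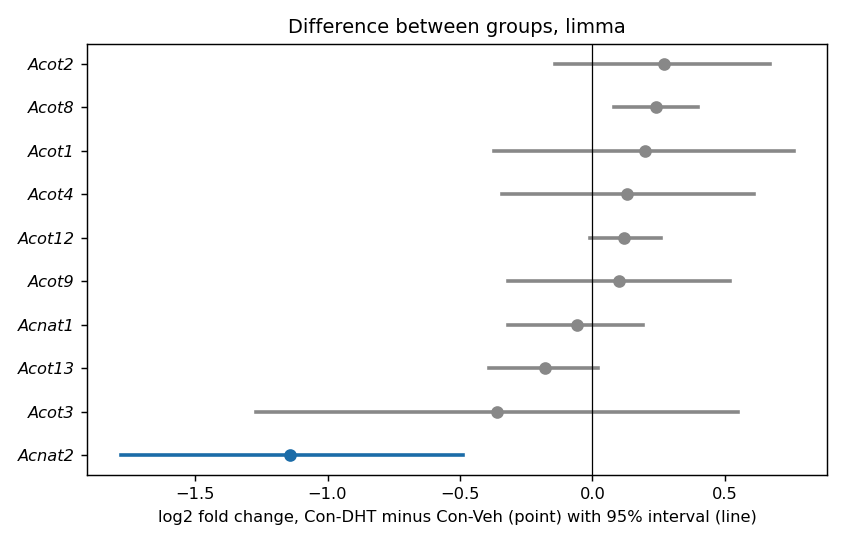
Log2 fold change of Con-DHT over Con-Veh (points) with its 95% interval (lines) from limma for the 10 genes, ordered by size, with the called gene in blue. The interval of Acnat2 runs from -1.78 to -0.49, and those of Acot8 and Acnat2 are the 2 that leave out 0.

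Levels can be compared between genes only per length, here as the normalised read count per kilobase of exon. In Con-Veh the highest were Acnat2 (1698 ± 440.3), Acot1 (995 ± 323) and Acot12 (918 ± 30.6, SD, n = 4). In Con-DHT the order was Acot1 (1133 ± 355), Acot12 (999 ± 25.3) and Acnat2 (803 ± 331), 3 neighbours whose ranges of mean ± SD overlapped. Over all 8 livers Acot13 had a mean of 561 per kilobase, Acot3 458, Acnat1 326, Acot2 249.7, Acot8 238, Acot4 145 and Acot9 24.4. The per-kilobase level of Acnat2 ranged from 470.3 to 2110.4 and that of Acot12 from 886 to 1035. The ranges over 8 livers did not overlap between Acot12 and Acot13, Acot8 and Acot4, or Acot4 and Acot9. The other neighbours in this order overlapped and cannot be ordered.

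The genes on either side of the clusters gave no call. In the table, Papln, Numb and Riox1 precede and Dnal1, Elmsan1 and Ptgr2 follow the Acot cluster, and Tex10, Tmeff1, Plppr1, Gm26424, Baat and Mrpl50 flank the Acnat pair. The adjusted p of these 12 genes lay between 0.094 and 0.96 (limma), and their log2 fold changes between -1.14 and 0.84. Plppr1 and Gm26424, both beside the Acnat pair, had -1.14 each, as Acnat2 did. Their counts were low, with means of 34.6 and 14.4 in Con-Veh and 14.2 and 6.67 in Con-DHT. Of the 12, groups did not overlap for Gm26424 (lower in Con-DHT) and Tmeff1 (higher), against 15.1% of all tested genes. By the Pearson r of group-centred log2 values over 8 livers, the genes most like Acnat2 were Ciao2a (0.979), Slc4a9 (0.965) and B230369F24Rik (0.957), and those most like Acot1 were Ikzf4 (0.976), Smim26 (0.957) and Fam189a2 (0.947). These are the top of 14312 genes over few livers, and are given as a description.

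Around the 10 genes, the rest of acyl-CoA metabolism was read from 6 lists with 101 tested genes. Of these, 10 were called, 9 higher and 1 lower in Con-DHT, or 9.9% against 7.21% of all tested genes. The median log2 fold change was 0.11. Of the 101 genes, edgeR called 12, against 7.15% of all tested genes, and DESeq2 22, against 11.0%. Under spike-in scaling limma called 2 of them, Nudt7 and Keg1, against 4.45% of all tested genes. Under equal totals without the Mup genes it called 23, against 9.01%.

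The largest difference among these 101 genes was in another enzyme that consumes acyl-CoA. Nudt7, the peroxisomal diphosphatase that cleaves CoA and acyl-CoA, had 783.8, 834.8, 835.6 and 744.1 in Con-Veh and 5005, 2834, 1465 and 3181 in Con-DHT. Every Con-DHT liver was above every Con-Veh liver, with a wide spread in Con-DHT. The means were 799.6 ± 44.2 and 3121 ± 1458 (SD, n = 4), and the log2 fold change was 1.83 (SE 0.29, adjusted p = 0.0047, limma), called with each liver left out. It was the 1 call among 14 other thioesterases and CoA hydrolases (7.14%, against 7.21% of all tested genes). Acot11, a long-chain thioesterase, was next by adjusted p (log2 fold change -0.78, SE 0.31, adjusted p = 0.17).

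Among 6 amino acid N-acyltransferases and related enzymes, Keg1, a member of the glycine N-acyltransferase family, was the 1 call (16.7%, against 7.21% of all tested genes). Its values were 252.8, 357.1, 353.4 and 282.9 in Con-Veh and 1002, 648.4, 488.9 and 738.1 in Con-DHT, without overlap. Its difference on the log2 scale was 1.17 (SE 0.20, adjusted p = 0.007, limma), called with each liver left out. Glyat, the glycine conjugating enzyme of liver mitochondria, missed the threshold (2249 ± 284 and 2885 ± 226, SD, n = 4, log2 fold change 0.36, adjusted p = 0.051, limma). It was called in 5 of 13 alternatives, among them DESeq2 (0.017) and quantile normalization (0.015), and without Con-Veh replicate 2 (0.019) or Con-DHT replicate 4 (0.047).

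Acyl-CoA synthetases, which make the substrates of the thioesterases, had 2 higher genes among 18 (11.1%, against 4.60% of all tested genes higher). By edgeR and by DESeq2 2 were called (11.1%, against 7.15% and 11.0% of all tested genes). An unadjusted p at or under 0.05 in limma was found for 6 (33.3%, against 23.2%). Acsl1, the main long-chain synthetase of liver, had means of 18834 ± 3156 and 30749 ± 5489.7 (SD, n = 4; log2 fold change 0.70, SE 0.16, adjusted p = 0.026, limma). Acsl4, which prefers arachidonic acid, had 445 ± 71.3 and 664 ± 105 (0.58, SE 0.14, adjusted p = 0.034). Each kept its call in part of the 8 fits without 1 liver, Acsl1 in 3 (without Con-Veh replicate 4 or Con-DHT replicate 2 or 3) and Acsl4 in 2 (without Con-Veh replicate 1 or Con-DHT replicate 2). The Acsl1 call was also lost with the replicate block and under spike-in scaling, and the Acsl4 call without trend (0.071) and under spike-in scaling. By qRT-PCR of livers of WD-fed mice the paper reports no change of Acsl1 with DHT.

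Peroxisomal fatty acid oxidation had 4 calls among 24 genes, 3 higher and 1 lower (16.7%, against 7.21% of all tested genes), with a median log2 fold change of 0.18. Of the 24, edgeR called 5 and DESeq2 10 (7.15% and 11.0% of all tested genes), and 13 (54.2%, against 23.2%) had an unadjusted p at or under 0.05 in limma. Scp2, whose longer product is the thiolase for branched chains, was 33381 ± 2179 in Con-Veh and 56719 ± 6388 in Con-DHT (SD, n = 4; log2 fold change 0.76, SE 0.13, adjusted p = 0.0063, limma). Phyh, the phytanoyl-CoA hydroxylase of alpha-oxidation, was 16738 ± 1850.0 and 26040 ± 1354 (0.64, SE 0.11, adjusted p = 0.0061). Abcd3, a peroxisomal importer of branched and dicarboxylic acyl-CoAs, was 6797 ± 526 and 9164 ± 769 (0.43, SE 0.09, adjusted p = 0.02). The Abcd3 call was lost with the replicate block (0.068) and without Con-DHT replicate 1 or 2 (0.058 each).

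Abcd2, a peroxisomal importer of very long-chain acyl-CoAs, was the lower gene of that list. Its values were 613.4, 673.6, 1007 and 906.0 in Con-Veh and 284.5, 361.0, 440.9 and 404.4 in Con-DHT, without overlap. Its difference on the log2 scale was -1.09 (SE 0.18, adjusted p = 0.0057, limma), called with each liver left out.

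PPARα and its targets gave 2 calls among 25 genes (8%, against 7.21% of all tested genes). Of the 25, edgeR called 3 and DESeq2 6 (7.15% and 11.0% of all tested genes). In limma 7 (28%, against 23.2%) had an unadjusted p at or under 0.05. Cpt1a, the mitochondrial gate for long-chain acyl groups, was 11059 ± 1067 and 15654 ± 937 (SD, n = 4; log2 fold change 0.50, SE 0.10, adjusted p = 0.012, limma), and Aldh3a2, the fatty aldehyde dehydrogenase, had a log2 difference of 0.54 (SE 0.13, adjusted p = 0.03). The Aldh3a2 call held in 3 of the 8 fits without 1 liver, those without Con-Veh replicate 1 or 3 or Con-DHT replicate 3, and was lost without trend (0.056) and with the replicate block (0.078). Ppara itself was 2095 ± 388 and 2857 ± 294 (log2 fold change 0.46, adjusted p = 0.07), and Fabp1, the liver fatty acid binding protein, missed the threshold too (0.47, adjusted p = 0.06). By qRT-PCR of livers of WD-fed mice the paper reports no change of Cpt1a with DHT. The list's median was 0.15.

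CoA synthesis and acyl-CoA binding gave 0 calls among 14 genes with limma, where 4 (28.6%, against 23.2% of all tested genes) had an unadjusted p at or under 0.05. There were 0 calls with edgeR and 1 with DESeq2 (7.15% and 11.0% of all tested genes). Vnn3, a pantetheinase, had a log2 difference of -0.62 (SE 0.21, adjusted p = 0.11), and Pank1, a pantothenate kinase, 0.19 (SE 0.07, adjusted p = 0.16). The plot of the lists sets these beside the 10 genes.

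**Figure D5:**
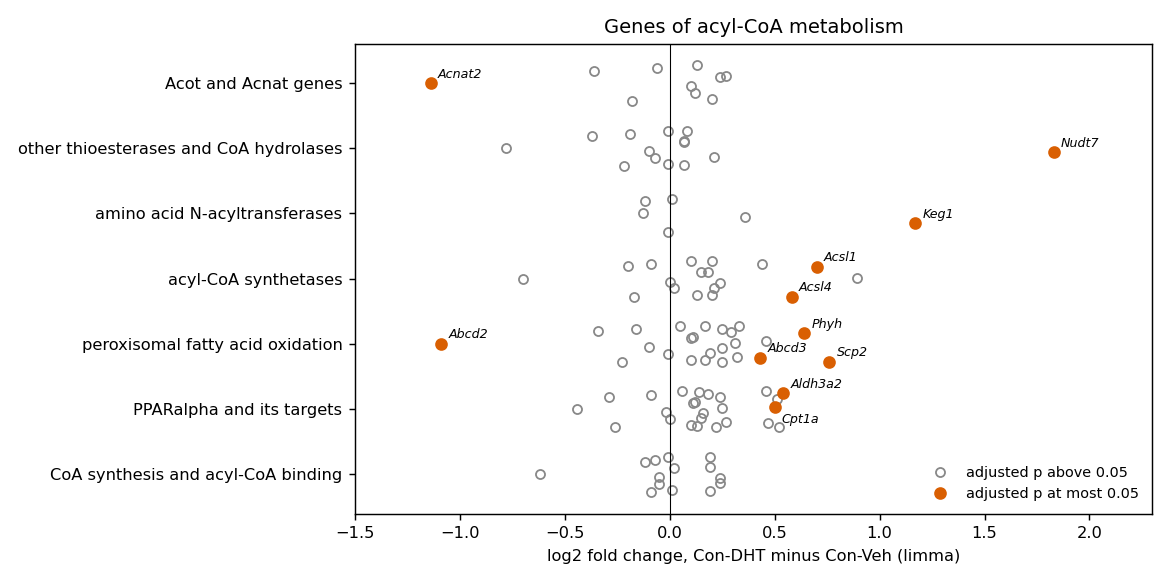
Log2 fold change of Con-DHT over Con-Veh (limma) for the 10 Acot and Acnat genes and the 101 genes of 6 lists, 1 point per gene, filled and named where the adjusted p was at most 0.05. Acnat2 and Abcd2 are the called genes to the left of 0, and Nudt7 is the farthest to the right.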

How the data were processed

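RNA of 8 livers, 1 library per mouse, was sequenced by the authors, with ERCC spike-ins added. The submitters' processing notes name Trimmomatic, STAR, featureCounts, Subread, DESeq2 and GRCm39. The authors deposited a normalized signal per gene, in which the read counts of a library had been divided by its DESeq2 size factor. The table held 14371 features, 54 of them spike-ins, and no mouse gene with fewer than 81 reads over the 8 libraries. Symbols and exon lengths came from GENCODE M21 (14287 of 14317 genes matched) and promoters from RefSeq, both on GRCm38. Coordinates are on that build. No replicate pair agreed within sampling noise (chi-square per degree of freedom of 19.5 or more).

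Dividing each column by its smallest step gave whole reads for 100% of the values (tolerance 0.01). In a library, 3 reads are worth 2.61 to 3.30, which covers counting error only. Con-DHT was compared with Con-Veh on log2(value + 1), which understates fold changes of low genes, for genes with a mean of at least 10, using limma 3.58.1 (eBayes with trend) in R 4.3.3, Benjamini-Hochberg adjustment and a threshold of 0.05. On the recovered reads edgeR 4.0.16 called 1024 genes (7.15%) and DESeq2 1.42.0 1569 (11.0%), against 1032 with limma. Intervals are at 95%. Python 3.11.15 and scipy 1.17.1 gave the permutation tests. The scripts were tested on simulated data.

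The members and lists were chosen with earlier results of these data known. Named genes were all 10 members, up to 6 called genes of each list by adjusted p (otherwise the 2 with the smallest), 3 tested genes on each side of each cluster, the 3 genes most like Acnat2 and Acot1, and each marker list's most abundant and called genes. Genes named outside this rule, chosen after their values were seen, are Ppara, Fabp1, Cyp4a10, Cyp4a14, 4732463B04Rik, Retn, Snx21, Sgk1 and Gm35041. Of lymphocyte markers only Jchain and of neutrophil markers none were analysed here. None of 5 cholangiocyte markers was called by limma, edgeR or DESeq2, and 0 had an unadjusted p at or under 0.05. Acot5 and Acot10 were not analysed here. Alternatives changed the pseudocount, filter, scaling, trend, weights, block, test or left out 1 liver. One gene of the lists is not reported here by name.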

Additional observations from a re-analysis of the deposited data

Results flagged for a closer look

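In 74 groups of 4 values, 1 per treatment for each of 37 genes (the 10 members, named genes of the related lists, called markers and 4732463B04Rik), 6 had an end value whose gap to the nearest other was too large a part of the range by Dixon's test at the 95% level. Chance gives about 1 in 20 such groups. Acot2 was 864.2 in Con-DHT replicate 4, with 552.1 as the next value. The antisense gene 4732463B04Rik was 378.3 in Con-Veh replicate 3, with 134.1 next. Phyh was 24017.9 in Con-DHT replicate 3, with 26535.1 next above. Abcd3 was 6012.1 in Con-Veh replicate 1, with 6984.5 next above. Pank1 was 3701.3 in Con-Veh replicate 1, with 3587.3 next below. Vsig4 was 389.5 in Con-DHT replicate 1, with 294.6 next below.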

How the results depend on the processing

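Over all genes, limma called 1032, 648 of the genes with a mean of at least 50, 637 under spike-in scaling and between 638 and 897 without 1 liver, and DESeq2 called 1569. The share of calls higher in Con-DHT was 63.8%, 83.9% under equal totals without the Mup genes and 88.2% under spike-in scaling, where the median log2 fold change of all genes was 0.0896 and 0.188. Members called numbered 0 with a mean of at least 50, without trend and with edgeR, 2 under equal totals without the Mup genes, and 0 to 1 without 1 liver. Called genes of the 6 related lists numbered 23 under equal totals without the Mup genes, 2 under spike-in scaling, 22 with DESeq2 and 6 to 11 without 1 liver, with 6 without Con-DHT replicate 1. With the replicate number as a block, 0 members and 700 genes were called, and Acnat2 had an adjusted p of 0.089. Same-numbered samples correlated at -0.186, -0.00596, -0.0218 and -0.0761, so the numbers were not taken to pair the mice.

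The sign of a log2 fold change turned in these fits, none of them called. Without 1 liver, Acot3 ranged from -0.63 to 0.04 (without Con-Veh replicate 3), Acot9 from -0.01 (without Con-DHT replicate 4) to 0.21 and Acnat1 from -0.13 to 0.01 (without Con-DHT replicate 2). Under spike-in scaling Acot13 was 0.02, Acnat1 0.14, Baat 0.19 and Cyp4a10 0.20. Under equal totals without the Mup genes Acnat1 was 0.04, Baat 0.09 and Cyp4a10 0.10. With quantile normalization Baat was 0.06 and Cyp4a10 0.10, and with equal upper quartiles Cyp4a10 was 0.00. 4732463B04Rik was -0.07 with edgeR and with DESeq2. Baat ranged from -0.06 to 0.03 without 1 liver, 4732463B04Rik from -0.14 to 0.56, Cyp4a10 from -0.13 to 0.13 and Cyp4a14 from -0.05 to 0.29. The cause was not tested. Of 210 alternative fits of the 10 members, 194 kept direction and side of the threshold, 9 lost a call, 1 gained one and 6 turned sign. The 9 lost calls were all of Acnat2, the 1 member with a call to lose. It kept its call in 9 of 13 alternative settings and in 3 of 8 fits without 1 liver. A count of 4 mice per group limits the precision.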
